A study of Mus musculus with 2 samples.

Results

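The genes described here code for the nuclear-encoded subunits of respiratory complex I, the NADH:ubiquinone oxidoreductase of the inner mitochondrial membrane. They were taken by symbol, as Ndufa, Ndufb, Ndufc, Ndufs or Ndufv followed by a number, or Ndufab1, with at least 1 transcript annotated protein_coding. The rule found 37 genes among 55450 annotated mouse genes, on 15 chromosomes, with Ndufa1 and Ndufb11 on the X chromosome. Assembly factors (Ndufaf genes) were left out. The series measured heart tissue of 2 adult B6CASTF1/J females, first-generation crosses of the C57BL/6J and CAST/EiJ strains, aged 8 to 10 months, by total RNA sequencing from 300 ng of RNA. There is 1 group, with no treatment or genotype contrast, and 1 library per animal: replicate 1 is animal number 1 and replicate 2 is animal number 3. Tissue of a whole organ holds many cell types, so a level is an average over them, and fewer cells of a type and less RNA per cell cannot be told apart. No p-value is given, since a sign-flip test over 2 animals cannot fall below 0.5, and values are means ± SD (n = 2) unless an animal is named.

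Complex I passes electrons from NADH through a flavin and a chain of iron-sulfur clusters to ubiquinone, and pumps protons across the membrane as it does so. Its catalytic core is shared with bacteria and is split between 2 genomes. In mammals 7 core subunits are nuclear and 7 are mitochondrial (the mt-Nd genes). The other nuclear subunits are called accessory and surround the core. Heart muscle draws most of its ATP from oxidative phosphorylation and is dense in mitochondria.

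The libraries held 42223411 and 40553237 expected counts, and each member had between 1486 and 25731 of them. The tissue label was checked against 10 heart muscle markers, all present, with medians of 3217 and 2968 TPM, the transcripts of a gene per 1000000 of all transcripts, a level corrected for length. The 4 liver markers stood at 0.35 TPM or less. Atrial markers and red blood cell markers differed between the animals, as given with the comparison of the animals.

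All 37 members reached 1 TPM in both hearts, and 35 of them reached 100 TPM. The median member stood at 300.92 TPM in replicate 1 and 280.58 TPM in replicate 2, a mean of 290.75 ± 14.4 TPM. Of 10703 nuclear protein-coding genes that reached 1 TPM in both hearts, 180 (1.68%) lay above that median. The members together held 3.66% and 3.85% of all nuclear protein-coding TPM in the animals. They nevertheless did not stand at 1 level: the highest member exceeded the lowest 18.5-fold in replicate 1 and 16.7-fold in replicate 2, and 29 of 37 lay within 2-fold of the median. These folds rest on Ndufb4, the lowest member, whose level differs between the authors' tables: in the FASTQ-derived table, the other set of values for these libraries, Ndufa4 exceeded Ndufb3, the lowest there, 8.84-fold and 8.23-fold. The SD of log2 TPM over the members was 0.85 ± 0.02. The order of the levels was nearly the same in both animals (Spearman's rho 0.99 over the 37 genes). Of the 36 pairs of neighbours in that order, 11 had values that did not overlap between the pair, and the other neighbours could not be placed in order from 2 animals. TPM tended to be higher for shorter mRNAs, with a rho of -0.33 between mean TPM and gene length over the 37 genes.

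**Figure D1:**
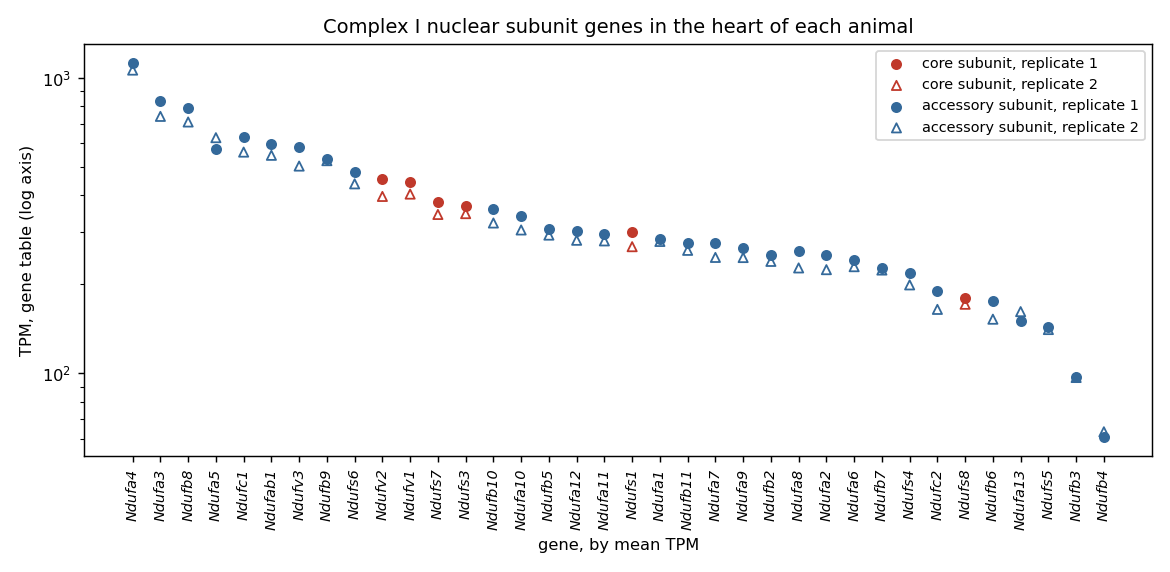
TPM of 36 of the 37 complex I nuclear subunit genes in the gene table (log axis) for replicate 1 (filled circles) and replicate 2 (open triangles), with core subunits in red and accessory subunits in blue. Ndufa4 stands above 1000 TPM in both animals and Ndufb4 and Ndufb3 lie below 100 TPM, while Ndufs8 is the core subunit farthest down the order.

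The 3 core subunits of the NADH-oxidising module lay close together in the gene table. Ndufv1, which carries the flavin and binds NADH, stood at 443.04 and 404.05 TPM in replicates 1 and 2. Ndufv2, its iron-sulfur partner, stood at 454.62 and 396.73 TPM. The ranges of this pair overlapped in the gene table, and their ratio was 0.97 and 1.02 in the animals. In the FASTQ-derived table they did not overlap, with 420.1 and 383.4 TPM for Ndufv1 and 523.0 and 469.9 TPM for Ndufv2. Ndufs1, the largest subunit, which holds several iron-sulfur clusters, was lower than both in each animal, at 300.92 and 268.20 TPM in the gene table.

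Other core subunits belong to the quinone-reducing module. Ndufs7, which carries the last iron-sulfur cluster before the quinone, stood at 379.51 and 344.70 TPM in the gene table. Ndufs3 stood at 366.85 and 347.00 TPM, so these neighbours overlapped there. In the FASTQ-derived table they did not, with 381.9 and 364.1 TPM for Ndufs7 and 555.1 and 504.7 TPM for Ndufs3. Ndufs8, which carries iron-sulfur clusters of the same chain, was the lowest core mRNA, at 179.42 and 171.27 TPM in the gene table. Its values did not overlap with those of Ndufs7 or Ndufs3, although the complex holds these proteins in equal number. The median core member lay above the median accessory member by 0.43 and 0.36 on the log2 scale, a difference of 0.40 ± 0.05.

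The 5 highest members of the gene table were all accessory. Ndufa4 led with 1124.6 and 1061.71 TPM. Its protein was first counted with complex I and is now placed in cytochrome c oxidase, which it serves as a subunit, so values are also given without it where that matters. Ndufa3, a small membrane subunit, followed with 837.15 and 740.29 TPM, and Ndufb8, of the distal membrane arm, with 787.60 and 708.61 TPM. Ndufa5, a subunit of the matrix arm, had 573.39 and 627.05 TPM, and Ndufc1, a small membrane subunit, 631.57 and 560.47 TPM. The ranges of Ndufa5 and Ndufc1 overlapped, whereas those of Ndufa4 and Ndufa3 did not. Ndufab1, the mitochondrial acyl carrier protein, which also works in mitochondrial fatty acid synthesis outside complex I, was next with 596.93 and 546.64 TPM. In the FASTQ-derived table Ndufv3, at 720.1 ± 64.0 TPM, and Ndufs6, at 619.0 ± 27.5 TPM, ranked 4 and 5. Ndufa5, Ndufc1 and Ndufab1 ranked 7, 9 and 13 there.

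The 5 lowest members of the gene table were also accessory. Ndufb4, a distal membrane arm subunit, had 60.78 and 63.41 TPM, and Ndufb3, of the same arm, 96.96 and 96.78 TPM. These were the 2 members below 100 TPM, and their values did not overlap. Ndufs5, an intermembrane space subunit, had 143.88 and 140.63 TPM. Ndufa13, also known as GRIM-19, had 150.88 and 161.72 TPM, and Ndufb6, of the distal arm, 175.83 and 152.45 TPM. The ranges of Ndufa13 and Ndufb6 overlapped. The low place of Ndufb4 depends on the table, as described with the processed copies. In the FASTQ-derived table Ndufb4 ranked 29 of 37 and Ndufs5 ranked 32. The core subunit Ndufs8 ranked 35 there, at 170.7 and 170.1 TPM, and Ndufc2 ranked 33, so the lowest members were not all accessory in that table.

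The other accessory members that face the matrix were between 209 and 544 TPM in the mean of the animals in the gene table. Ndufv3 had 543.9 ± 58.4 TPM and Ndufs6, which binds zinc, 458.5 ± 29.5 TPM. Ndufa10, which sits on the membrane arm and is related to nucleoside kinases, had 323.0 ± 24.7 TPM. Ndufa12 had 293.1 ± 15.7 TPM and Ndufa7 had 261.0 ± 20.2 TPM. Ndufa9, which binds NADPH, had 255.5 ± 12.8 TPM. Ndufa2, a thioredoxin-like subunit, had 237.7 ± 19.0 TPM and Ndufa6, of the LYR family that binds the acyl carrier protein, 235.6 ± 8.67 TPM. Ndufs4, whose loss in mice gives a Leigh-like encephalopathy, had 208.8 ± 13.6 TPM. From Ndufa12 to Ndufs4 the levels formed a gradual series with many overlapping neighbours.

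The membrane arm gave a wider range. Ndufb9, the other LYR protein of the complex, had 527.3 ± 4.33 TPM. Ndufb10 had 340.5 ± 25.3 TPM and Ndufb5 had 300.4 ± 9.76 TPM. Ndufa11, a membrane subunit, had 288.1 ± 10.7 TPM. The X-linked Ndufa1 and Ndufb11 stood next to each other at 282.6 ± 4.51 and 268.4 ± 10.9 TPM, within the range of the autosomal members. Ndufb2 had 245.1 ± 8.41 TPM. Ndufa8 and Ndufb7, both facing the intermembrane space, had 243.7 ± 23.2 and 225.1 ± 2.16 TPM, and Ndufc2 had 176.9 ± 17.4 TPM. The 10 Ndufb genes spanned the most of the letter groups with more than 3 genes, with an SD of log2 TPM of 1.06, against 0.79 for the 13 Ndufa genes and 0.70 for the 8 Ndufs genes. In the FASTQ-derived table, where Ndufb4 was higher, these SDs were 0.80, 0.71 and 0.70.

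Ndufv3 has coding isoforms that differ greatly in length, and nearly all of its TPM lay on 1 of them. The gene makes a long protein of 468 residues and a short one of 104 residues, which differ by 1 coding exon. In the GENCODE annotation of mm10 that exon is exon 3 of Ndufv3-201, at chr17:31527310-31528401 on the plus strand, 1092 bases that are all coding. The short transcript, Ndufv3-202, joins exon 2 to the last exon directly. Reads inside the exon of the long form, which overlaps no exon of Ndufv3-202, tell the isoforms apart, as do reads across the joins. The sequences at these joins are given with the exon of the long form in capitals.
Ndufv3-201 entry: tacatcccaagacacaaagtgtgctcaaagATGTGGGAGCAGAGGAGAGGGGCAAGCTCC
Ndufv3-201 exit: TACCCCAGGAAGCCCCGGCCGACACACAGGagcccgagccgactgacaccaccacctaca
Ndufv3-202 junction: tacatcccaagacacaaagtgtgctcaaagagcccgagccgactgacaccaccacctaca
In the alignment-derived table Ndufv3-202 stood at 581.13 and 498.49 TPM in replicates 1 and 2, and in the FASTQ-derived table at 760.9 and 670.0 TPM. Ndufv3-201 stood at 3.45 and 3.36 TPM in the first and at 3.59 and 3.33 TPM in the second. The short form therefore held 99.2% and 99.3% of the gene's TPM in the 2 tables (SD 0.09 and 0.10), and both animals and both tables had the same form on top.

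The mitochondrial partners were far more abundant. In the gene table mt-Nd1 was the highest of the 7, with 10533 and 11460 TPM in replicates 1 and 2. The top place depends on the table. In the FASTQ-derived table mt-Nd1 had 9698 and 10670 TPM, and mt-Nd3 had 11717 and 10571 TPM. The values that follow are those of the gene table. mt-Nd4 had 8065 and 9357 TPM, mt-Nd3 had 7712 and 7371 TPM, and mt-Nd5 had 5895 and 7111 TPM. mt-Nd4l had 4853 and 8313 TPM and mt-Nd2 had 4482 and 5678 TPM. mt-Nd6, alone among them coded on the other strand, was the lowest at 1863 and 1799 TPM. Every one of them stood above every nuclear member in both animals. The median mt-Nd level was 19.6 times the median member level in replicate 1 and 26.3 times in replicate 2.

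The proteins that assemble the complex stood at the other end. All 19 assembly factors found in the tables reached 1 TPM in both hearts, and their median was 17.0 ± 2.06 TPM. The highest in the gene table was Tmem70 at 38.6 ± 4.65 TPM, followed by Ecsit at 37.6 ± 3.54 TPM and Ndufaf3 at 27.5 ± 1.99 TPM. The lowest there were Ndufaf2 at 9.42 ± 1.25 TPM, Tmem186 at 6.89 ± 1.07 TPM and Nubpl, which delivers iron-sulfur clusters to the complex, at 3.61 ± 0.39 TPM. This order depends on the table. In the FASTQ-derived table Ndufaf3 led at 51.9 ± 3.44 TPM, above Tmem70 at 48.2 ± 6.42 TPM. Ndufaf2 stood at 13.2 ± 0.22 TPM there, above Tmem126b at 9.54 ± 0.86 TPM. The highest assembly factor thus lay below the lowest nuclear subunit in each animal.

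At the median, complex I mRNAs were lower than those of the other proton-pumping complexes and of the ATP synthase. The median member lay below the median nuclear subunit of complex III by -0.94 and -0.88 on the log2 TPM scale in replicates 1 and 2. Against complex IV the differences were -1.53 and -1.50, and against complex V -1.014 and -0.996. The list medians were 548 ± 44.8 TPM for complex III, 831 ± 53.7 for complex IV and 584 ± 34.0 for complex V, each over 9, 13 and 16 genes. Complex II, with 4 genes, had a median of 447 ± 42.9 TPM. The direction was the same in both animals, and the SD between animals was at most 0.05. The lists of complexes IV and V spread more widely and hold genes far below their medians, such as Cox6a1 at 75.3 ± 0.10 TPM, and their SD of log2 TPM was 1.32 and 1.83. The complex V value depends on the table: Atp5g2 had 8.85 ± 1.55 TPM in the gene table and 237.4 ± 19.2 TPM in the FASTQ-derived table, a second set of values deposited for the same libraries, where the SD of complex V was 0.95.

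**Figure D2:**
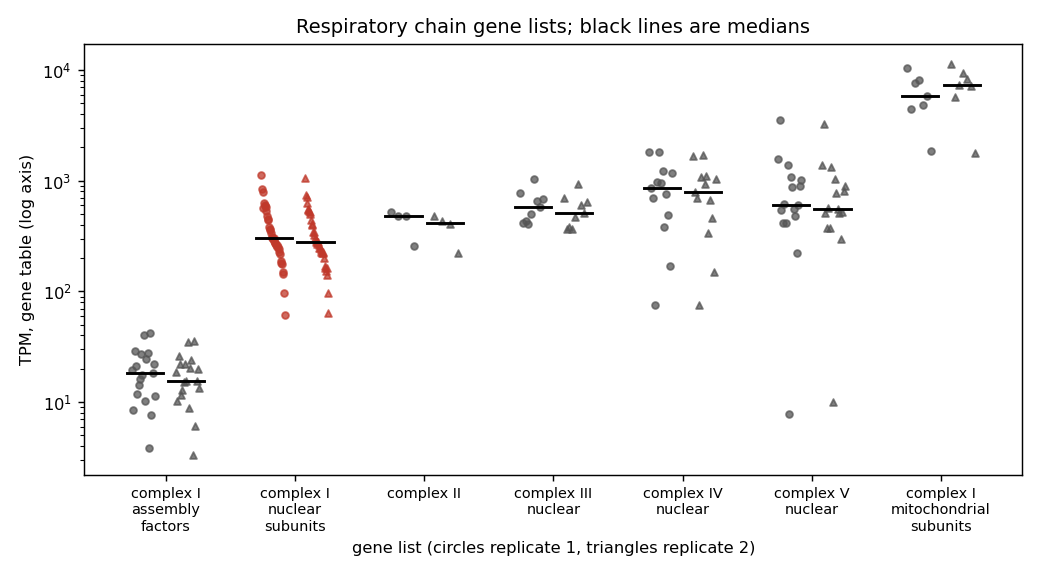
TPM of each gene (log axis) for the complex I nuclear subunits (red) and 6 other gene lists (grey), with circles for replicate 1, triangles for replicate 2 and black lines for list medians. The nuclear subunits sit between the assembly factors, with medians of 18.4 and 15.5 TPM, and the mitochondrial subunits, with medians of 5895 and 7371 TPM.

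The animals differed little in these genes. Log2 ratios of TPM + 0.1, replicate 2 over replicate 1, were centred by subtracting their median over 11871 genes whose mean TPM was at least 1 and whose expected counts summed to 20 or more. That median was -0.18 before centring. Beside it, the share of all TPM on the mitochondrial genome was 35.2% in replicate 1 and 41.0% in replicate 2, and its part in the shift was not tested. After centring 31 members were higher in replicate 2 and 6 lower, against 50.0% of all compared genes higher, and the median member ratio was 0.06. Without centring the direction turned: 3 members were higher and 34 lower, with a median of -0.13. A direction of the whole group between the animals is therefore set by the scaling.

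Of the 37 members, 2 were 1.2-fold or more apart after centring, where 26.4% of all compared genes were. They were Ndufa5, with 573.39 and 627.05 TPM and a centred log2 ratio of 0.31, and Ndufa13, with 150.88 and 161.72 TPM and a ratio of 0.28. Ndufb4 followed just under that fold at 0.24. None was 2-fold apart, where 1.42% of all compared genes were. High genes have less counting error, so the members were also set beside 815 nuclear protein-coding genes at or above the lowest member, of which 7.36% were 1.2-fold apart. The members are among these genes. The count of 2 in 37 is near that share, so it is not read as particular to the members. The SD of the ratios was 0.08 over the members and 0.15 over those 815 genes. The deposited credibility intervals of TPM did not overlap between the animals for 25 of 37 members, against 28.0% of all compared genes. Those intervals narrow as counts rise and were not centred, and the members are among the genes with high counts.

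The mt-Nd genes, the atrial markers and the red blood cell markers moved more than the members did at the median. All 7 mt-Nd genes were higher in replicate 2 after centring, with a median of 0.40. The lowest value was 0.12 for mt-Nd3 and the highest 0.96 for mt-Nd4l. The mt-Nd4l value depends on the table, with 4853 and 8313 TPM in the gene table and 5893 and 7647 TPM in the FASTQ-derived table. All 4 atrial markers were lower in replicate 2, with a median of -0.52, and their summed level was 1223 TPM in replicate 1 and 717 TPM in replicate 2. All 5 red blood cell markers that passed the filter were lower, with a median of -0.43, and the sum over all 6 was 3479 and 2255 TPM. Heart muscle markers were split, 6 higher and 4 lower, with a median of 0.01. All 5 endothelial markers were lower, with a median of -0.20 and sums of 156.5 and 117.7 TPM. Of 5 fibroblast markers, 4 were lower, with a median of -0.04 and sums of 182.4 and 152.9 TPM. Complexes II, III, IV and V and the assembly factors had medians between 0.01 and 0.07, beside 0.06 for the members. The part of these differences in the ratios of Ndufa5 and Ndufa13 was not tested.

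**Figure D3:**
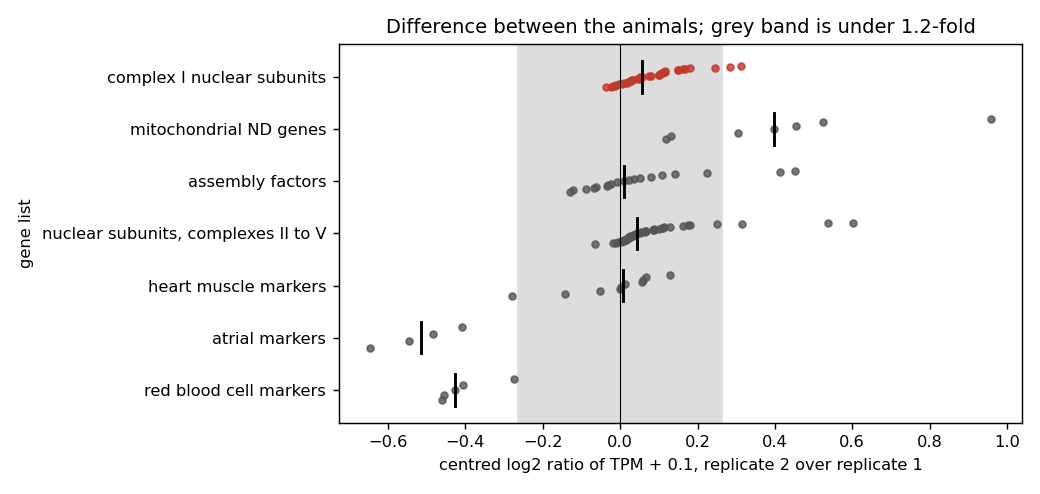
Centred log2 ratio of TPM + 0.1, replicate 2 over replicate 1, for each gene (points) of the complex I nuclear subunits (red) and 6 other lists (grey), with black lines for medians and a grey band for differences under 1.2-fold. In the gene table, which is shown, the members lie between -0.04 and 0.31, with Ndufa5 and Ndufa13 past the band. The mitochondrial ND genes reach 0.96, a value of mt-Nd4l that depends on the table, and the atrial markers -0.65.

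The reads of each library were quantified in 2 ways by the authors, and for 36 of 37 members both gave levels within 1.5-fold in at least 1 animal. The exception was Ndufb4, the single member 1.5-fold or more apart between the gene table and the FASTQ-derived table in both animals, where 5.1% of all compared genes were. It was also the single one past 2-fold, where 3.07% of compared genes were. Ndufb4 (chr16:37647170-37654453, minus strand) had 60.78 and 63.41 TPM in the gene table and 252.7 and 240.8 TPM in the FASTQ-derived table, a 3.97-fold difference of the means. It ranked last of 37 in the first and 29 in the second.

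A processed pseudogene, an intronless copy of an mRNA, mirrored that difference. Ndufb4c (chr15:73809507-73809896, minus strand) stood at 300.02 and 257.97 TPM in the gene table and was listed at 0 in the FASTQ-derived table in both animals. All 360 of the 31-base words in its 390-base transcript also occur in transcripts of Ndufb4, where they make up 38.3% of the words of the transcript Ndufb4-201. Reads from these words cannot be placed on 1 of the 2 genes by sequence, so the level of Ndufb4 is uncertain in either table. Ndufb4 and its copies together stood at 341.5 ± 27.8 TPM in the gene table and 247.1 ± 8.17 TPM in the FASTQ-derived table, 0.72-fold.

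Other members had such copies. Ndufs5 shared 47.3% of its words with BC002163 (chr16:42955631-42955949, plus strand), which had 92.1 ± 2.06 TPM in the gene table and was listed at 0 in the FASTQ-derived table. Ndufs5 itself had 142.3 ± 2.30 and 209.4 ± 0.94 TPM, and with its copies 234.4 ± 4.36 and 209.4 ± 0.94 TPM. Ndufa12 shared 59.0% of its words with Gm15920 (chr5:130188395-130188796, plus strand), at 68.9 ± 1.54 and 170.7 ± 21.9 TPM. Ndufab1 shared 61.5% with Gm4459 (chr7:139659688-139660155, minus strand), at 0.80 ± 0.42 TPM in the gene table and 171.9 ± 2.23 TPM in the FASTQ-derived one. The tables thus went opposite ways: the gene table gave more to the copies of Ndufb4 and Ndufs5, and the FASTQ-derived table more to those of Ndufa12 and Ndufab1. Each member was then summed with all genes sharing its words. The SD over members of the log2 ratio between the tables was then 0.22, against 0.38 for the members alone. That fall rested mainly on Ndufb4, whose ratio went from 1.99 to -0.47, so it is not a general effect over the members. Ndufa12 was an exception, since its tables lay 0.05 apart on the log2 scale alone and 0.39 apart when summed with its copies. In all, 14 members shared no word with another gene and 2, Ndufab1 and Ndufa12, had more shared than unshared words.

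**Figure D4:**
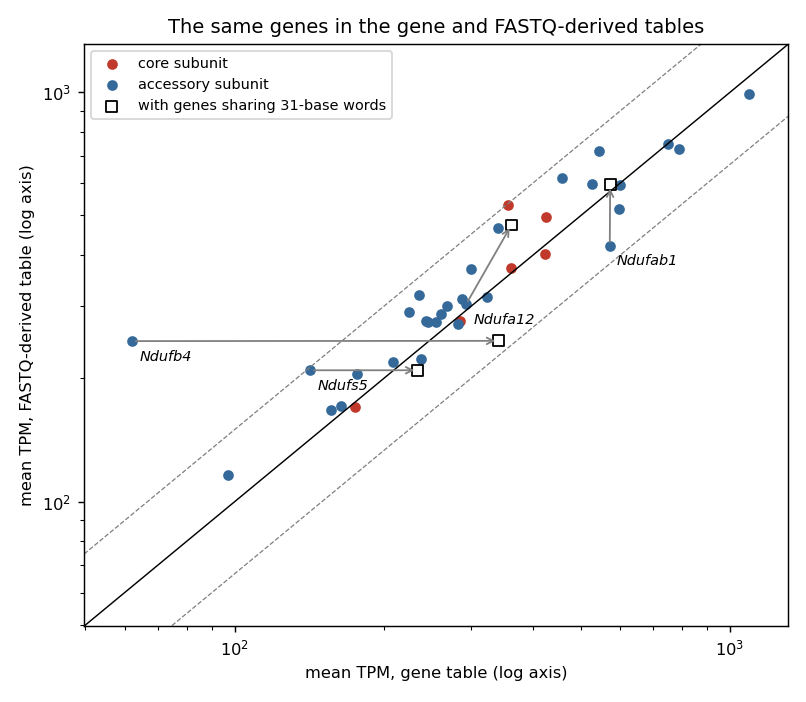
Mean TPM of 36 of the 37 members in the gene table (horizontal, log axis) and in the FASTQ-derived table (vertical, log axis), with core subunits in red and accessory subunits in blue. The solid line marks equality and the dashed lines 1.5-fold, and arrows lead to open squares that add the genes sharing 31-base words, which moves Ndufb4 from 62.1 to 341.5 TPM in the gene table.

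The split of a gene's TPM over its transcripts was less secure than its total. The 37 members have 186 annotated transcripts, and 31 members have more than 1. The main transcript was taken as that with the highest share of the gene's TPM in the mean of the animals. It was the same in both transcript tables for 30 members, 6 of which have only 1 transcript. No share over all genes stands beside this count. The main transcript differed for Ndufa4, Ndufa5, Ndufa9, Ndufa10, Ndufb4, Ndufc1 and Ndufs3. For Ndufa4 the forms were both coding: Ndufa4-204 had 992.11 and 956.17 TPM in the alignment-derived table and 383.0 and 341.6 TPM in the FASTQ-derived table, where Ndufa4-205 led with 631.5 and 626.5 TPM. Both code for 82 residues, so the tables disagree on the mRNA and not on the protein length. For Ndufa9 the lead passed from Ndufa9-203, at 257.75 and 223.89 TPM in the first table, to Ndufa9-201, at 199.7 and 188.5 TPM in the second. These code for 377 and 373 residues.

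Transcripts not annotated protein_coding held 28.6% ± 1.28 of the members' TPM in the FASTQ-derived table and 26.1% ± 0.70 in the alignment-derived one. Over all nuclear genes with a protein_coding transcript the shares were 17.4% ± 0.48 and 14.6% ± 0.02. By counts, which are not divided by transcript length as TPM is, the members' shares were 16.2% ± 0.45 and 15.4% ± 0.30. The shares over all genes are by TPM only, so they do not compare with these. Whether the members also exceed all genes by counts was not tested. Retained-intron transcripts held 11.3% ± 0.66 of the members' TPM in the FASTQ-derived table, and 11.0% ± 0.66 lay on transcripts annotated for nonsense-mediated decay, the pathway that removes mRNAs with early stop codons.

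Ndufa3 and Ndufs4 lay mostly on such transcripts in both tables. Ndufa3-204, a 343-base transcript annotated for nonsense-mediated decay, had 785.12 and 688.29 TPM in the alignment-derived table and 660.9 and 578.3 TPM in the FASTQ-derived table. It held 93.4% ± 0.57 and 85.3% ± 0.64 of the TPM of Ndufa3 in these tables, while the coding Ndufa3-201, which gives 84 residues, had 41.08 and 37.32 TPM and 1.202 and 0.865 TPM. Ndufs4-204, of the same annotation, had 145.14 and 118.05 TPM in the first table and 209.6 and 193.2 TPM in the second, or 62.9% ± 5.08 and 92.0% ± 1.90 of Ndufs4. The coding Ndufs4-201, of 175 residues, stood at 6.36 and 4.96 TPM in the first table and 14.8 and 11.9 TPM in the second. It was not the main protein_coding transcript of the first table, which was Ndufs4-206. All types not annotated protein_coding together held 91.9% ± 2.58 and 93.8% ± 0.72 of Ndufs4 in the 2 tables.

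Retained-intron and processed transcripts led elsewhere. Ndufab1-205, a retained-intron transcript, had 201.80 and 189.84 TPM in the alignment-derived table and 360.4 and 337.9 TPM in the FASTQ-derived one. Its lead in the first table held only in the mean, since Ndufab1-208, also a retained-intron transcript, had 208.30 and 176.39 TPM there, against 6.55 and 1.09 TPM in the second. Close to both in the first table was Ndufab1-202, annotated protein_coding, with 177.26 and 172.25 TPM, against 49.5 and 37.4 TPM in the second. Ndufc1-203, a 311-base retained-intron transcript, led in the first table with 409.54 and 353.02 TPM, and the processed transcript Ndufc1-202 in the second in the mean, with 272.1 and 273.5 TPM. The coding Ndufc1-204 had 188.20 and 178.34 TPM in the first and was listed at 0 in the second. For Ndufa5 the lead passed from the processed transcript Ndufa5-204, with 384.58 and 351.49 TPM, to the retained-intron Ndufa5-203, with 415.9 and 476.1 TPM. The coding Ndufa5-202, of 77 residues, had 180.61 and 268.62 TPM in the first table and an entry of 0 in the other. The coding Ndufa5-201, of 116 residues, went the other way, with 6.32 and 6.40 TPM in the first table and 149.6 and 144.1 TPM in the second.

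For Ndufa10, Ndufb4 and Ndufs3 a protein_coding transcript led in the alignment-derived table and one not annotated protein_coding in the FASTQ-derived table. Ndufa10-201 had 147.30 and 136.77 TPM in the first, and Ndufa10-207, annotated for nonsense-mediated decay, 139.9 and 130.9 TPM in the second. Ndufs3-201 had 171.75 and 153.18 TPM in the first, and the processed transcript Ndufs3-204 had 288.0 and 270.7 TPM in the second. Ndufb4-201 had 43.13 and 42.70 TPM in the first, and the retained-intron Ndufb4-202 had 145.8 and 142.5 TPM in the second. The main transcript was not protein_coding for 5 members by the alignment-derived quantification and for 8 by the FASTQ-derived one, with 5 in both. No share over all genes stands beside these counts, so they are not read as particular to the members. Which transcript these members use in heart was not settled by the deposited values.

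**Figure D5:**
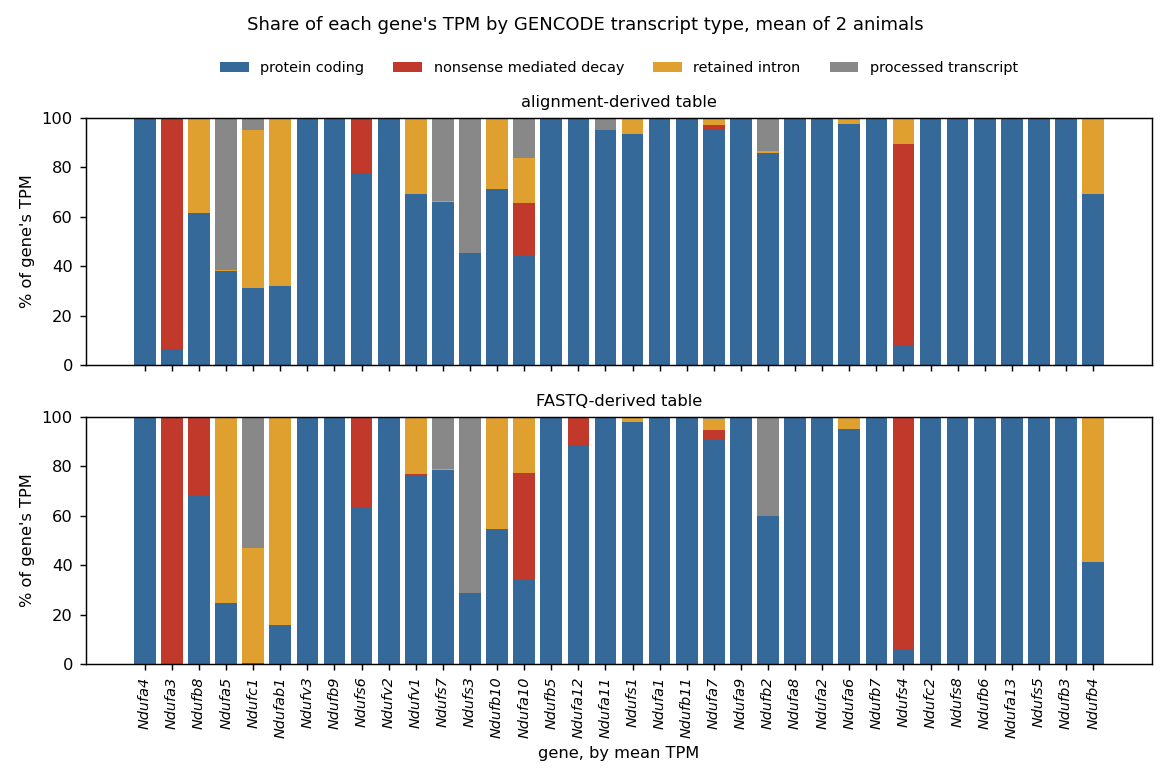
Share of the TPM of each of 36 members by GENCODE transcript type (stacked bars, percent, mean of 2 animals), in the alignment-derived table (top) and the FASTQ-derived table (bottom), with genes ordered by mean TPM. Ndufa3 and Ndufs4 are mostly on transcripts annotated for nonsense-mediated decay in both tables, while Ndufc1 and Ndufa5 change type between them.

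The members often share their start with a gene on the other strand. For 17 of 37 (45.9%) a protein-coding gene starts within 1000 bases on the opposite strand, against 16.6% of the 10703 expressed nuclear protein-coding genes. Among them are Ndufb9 with Tatdn1, whose starts lie 18 bases apart, and Ndufa7 with the ribosomal protein gene Rps28, 10 bases apart. The partners were not at the level of the members as a rule. Rps28 had 295.84 and 294.38 TPM and Eef1b2, the partner of Ndufs1, 135.07 and 122.96 TPM. In contrast Tatdn1 had 6.60 and 7.05 TPM, and Tssk6, the partner of Ndufa13, 0.02 TPM in both animals.

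Promoter windows from RefSeq (GRCm38.p6, 250 bases before to 50 after the start) were found for 33 members, as 35 windows because Ndufa5 and Ndufa7 have 2 each, and searched on both strands for motifs of factors known for nuclear genes of mitochondria. A gene was counted where any of its windows held the motif. The YY1 motif AAGATGGCG was in 5 members, 15.2% of 33, against 3.90% of 8437 expressed protein-coding genes and 1.64% of all 27025 genes with a window. The NRF1 motif GCATGCGC was in 3 (9.09%, against 6.26% and 3.05%) and the ERR motif AAGGTCA in 3 (9.09%, against 3.79% and 5.38%). The ETS motif CCGGAAG, to which NRF2 binds, was in 4, or 12.1%, which is below the 21.2% of expressed genes. With 33 members these are counts of a few genes, and a match of letters is not a bound site.

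The YY1 matches are printed because all 5 lie just after the start, a common place for this motif: of 258 windows of expressed protein-coding genes with it on the strand of the gene, 71.7% hold it there. Each is shown in 30 bases with the motif in capitals. Counted from the first base of the RefSeq start as 1, they begin at 23 (Ndufc1), 25 (Ndufs7), 30 (Ndufa9), 34 (Ndufs6) and 36 (Ndufs4), each on the strand of the gene.
Ndufc1: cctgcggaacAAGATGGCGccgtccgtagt
Ndufs7: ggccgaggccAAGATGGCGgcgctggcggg
Ndufa9: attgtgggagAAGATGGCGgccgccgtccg
Ndufs6: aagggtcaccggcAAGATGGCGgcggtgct
Ndufs4: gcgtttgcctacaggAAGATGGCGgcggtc
They lie at chr3:51408914-51408943 (minus), chr10:80249463-80249492 (plus), chr6:126849096-126849125 (minus), chr13:73328433-73328462 (minus) and chr13:114388045-114388074 (minus). In all 5 the ATG inside the motif is an annotated start codon of the gene, so these letters also begin the protein. Among those 258 windows this held for 49.6%. The 5 genes did not share a level: Ndufc1 stood at 596.0 ± 50.3 TPM and Ndufs4 at 208.8 ± 13.6 TPM, with the other 3 between.

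The NRF1 matches of Ndufa8 (chr2:36049328-36049357, minus), Ndufa6 (chr15:82354356-82354385, minus) and Ndufa11 (chr17:56717693-56717722, plus) lie before the start, at -8, -83 and -58. They are shown for comparison with the YY1 sites, again with the motif in capitals.
Ndufa8: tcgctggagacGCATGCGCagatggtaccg
Ndufa6: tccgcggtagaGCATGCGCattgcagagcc
Ndufa11: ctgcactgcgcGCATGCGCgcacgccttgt
These 3 genes had similar levels, at 243.7 ± 23.2, 235.6 ± 8.67 and 288.1 ± 10.7 TPM, close to the median of all members.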

How the data were processed

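Per the labels, both libraries were made from total heart RNA with a directional kit and ERCC spike-ins. The deposited description files name mm10 as the assembly and GENCODE M21 as the annotation. For the aligner and the quantification software, names were not given in the sources used here. Per the file headers, the authors' gene table and alignment-derived transcript table hold expected counts and TPM, with posterior mean TPM and credibility bounds, and their FASTQ-derived table has an estimated count and a TPM for each transcript. FPKM and isoform percentages were not used. Reads of the CAST/EiJ allele were assigned against a C57BL/6J reference, which may lower their assignment.

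From these files, TPM of the gene table were taken as deposited. The FASTQ-derived table was summed to genes. Ratios between animals used a pseudocount of 0.1. Members and lists were chosen with earlier results of these data known. The members are named except for 1 that is not reported here by name but is part of all counts and medians; values per animal are given for named core subunits, the 5 highest and lowest, and those that differ between animals, tables or main transcripts. Sequences came from GENCODE transcripts and RefSeq. The labels give both libraries the same donor identifier, so n = 2 rests on their animal numbers. Counting error is the part of the precision that depth sets, and the reads carry no molecular identifiers, so they do not count independent molecules. Python 3.11.15, numpy 2.4.6, pandas 2.3.3 and scipy 1.17.1 were used.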

Additional observations from a re-analysis of the deposited data

How the results depend on the processing

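Of 80 recomputed values, 59 kept their direction and stayed within the spread between animals or within 1.5 times the count, 20 moved and 1 reversed; the causes were not tested. With the FASTQ-derived table, the median member was at 313.25 TPM, the SD of log2 TPM was 0.71, and the differences from complexes III, IV and V were -1.12, -1.77 and -1.39. Without Ndufa4 that SD was 0.80 and the share of nuclear protein-coding TPM 3.45%. The SD was 0.77 without Ndufb4, an alternative chosen after seeing the data, and 1.93 over protein_coding transcripts of the FASTQ-derived table. The median ratio of the animals, 0.06, was -0.13 without centring. It was 0.058 with a pseudocount of 0.01, 0.034 with 1, 0.024 centred over all genes with a count, 0.058 centred on nuclear protein-coding genes, 0.067 from expected counts, 0.076 from the FASTQ-derived table and 0.050 from posterior means. The number of members 1.2-fold apart was 1 from expected counts, 1 with a pseudocount of 1 and 0 without centring. The share on transcripts not annotated protein_coding was 26.1% in the alignment-derived table. Leaving out an animal gave medians of 280.58 to 300.92 TPM and ratios of mt-Nd to members of 19.6 to 26.3. No paired analysis was possible because there is 1 group. All members were detected at this depth.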

Other observations

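A further complex I gene fell outside the rule because of its annotation. Ndufb1-ps is a bidirectional-promoter lncRNA in GENCODE, while RefSeq lists the gene as Ndufb1, protein_coding. It stood at 112.36 and 116.84 TPM in the gene table and 157.7 and 166.5 TPM in the FASTQ-derived table, within the range of the members. Ndufa4l2, a paralogue of Ndufa4 known for its rise in low oxygen, was lower at 6.32 and 6.26 TPM, against 1124.6 and 1061.71 TPM for Ndufa4. Its values barely differed between the animals.

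A gap between tables like that of Ndufb4 was seen outside complex I. Atp5g2, a gene for the c subunit of ATP synthase, had 7.75 and 9.94 TPM in the gene table and 250.9 and 223.8 TPM in the FASTQ-derived table. Of other promoter motifs, the CCAAT box was in 10 of 33 members (30.3%, against 43.0% of expressed genes), GGGCGG, the SP1 motif, in 15 (45.5%, against 71.0%) and TATAAA in 4 (12.1%, against 8.45%).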
